A study of Mus musculus with 2 samples.

Results

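Genes known to be imprinted in the mouse, 10 in all, were followed through the fibroblasts of healing small wounds. They are *Dlk1*, *Mest*, *Peg3*, *Plagl1*, *Ndn* and *Snrpn*, which are expressed from the paternal copy, and *Meg3*, *H19*, *Cdkn1c* and *Grb10*, which are expressed from the maternal copy. They were chosen by symbol, with earlier results of these data known. All 10 were found among the 27998 genes of the single-cell count matrices. The cells were Tomato+ cells sorted from the dermis of small wounds, 3 days after complete re-epithelialization, of mice 4 to 5 weeks old. The control library came from *SM22rtTA; tetO-Cre; R26-Tomato* mice and the *SM22-SmoM2* library from mice that also carried *R26-SmoM2*, a constitutively active Smoothened that switches on Hedgehog (Hh) signaling. Both groups carried the rtTA, Cre and Tomato alleles and received doxycycline from day 1 after wounding. The promoter of *SM22α* drove rtTA, so that recombination was directed to cells with *SM22α* activity. The sorted control cells also included 678 Schwann and 611 endothelial cells, and a history of *SM22α* activity was not measured. Each group was 1 library pooled from wounds of several mice, so differences between groups have no replicate check and no test was made. All intervals are 95% intervals that cover counting error only.

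Genomic imprinting is the expression of a gene from only 1 of the parental copies, set by DNA methylation laid down in the germ line. Imprinted genes lie in clusters, and many act on fetal growth, on precursor cells and on their withdrawal from the cell cycle. In mesenchymal tissue many of them are strongly expressed before birth and decline with age. The counts do not separate the parental copies, so nothing here measures imprinting itself.

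After filtering, 2856 control cells and 1792 *SM22-SmoM2* cells remained, with medians of 8607.5 and 8837.5 unique molecular identifiers (UMIs, each marking 1 captured transcript) per cell. Fibroblasts, named from 9 marker genes, made up 1090 control and 1098 *SM22-SmoM2* cells. All 9 reached 10 CPM (UMIs of a gene per 1000000 UMIs of the cells summed) in both libraries. That level does not set fibroblasts apart, since 8 of the 9 reached it in mural cells and all 9 in *SM22-SmoM2* immune cells. In sum the 9 stood at 74117 and 46458 CPM in fibroblasts. The next highest sums among named classes were 8920 CPM in control Schwann cells and 9008 CPM in *SM22-SmoM2* immune cells. The median depth of fibroblasts was 12473 and 10947.5 UMIs. In fibroblasts, the Hh target *Ptch1* stood at 12.2 CPM in control wounds and at 147 CPM with *SM22-SmoM2*. Of the fibroblasts that could be sexed by transcript, 74.6% were male in control and 94.4% in *SM22-SmoM2* wounds, so the libraries also differed in their mix of sexes.

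The members lie on 5 mouse chromosomes (GRCm38, GENCODE vM21). On chromosome 12, *Dlk1* (chr12:109452823-109463336, plus strand) and the long non-coding RNA gene *Meg3* (chr12:109541001-109571726, plus strand) are 77.7 kb apart. Chromosome 7 holds *Peg3* (chr7:6703892-6730431), *Snrpn* (chr7:59982495-60140219), *Ndn* (chr7:62346569-62350262), *H19* (chr7:142575529-142578143) and *Cdkn1c* (chr7:143458339-143461050), all on the minus strand except *Ndn*. *Mest* lies at chr6:30723547-30748465 (plus strand), *Plagl1* at chr10:13060504-13131694 (plus strand) and *Grb10* at chr11:11930508-12038683 (minus strand). *Snrpn* overlaps *Snurf* and *Gm38393* on the same strand, and how UMIs of the shared sequence were assigned is not given in the sources used here; *Snurf* had 0 UMIs in fibroblasts. *Mest* overlaps *Copg2* and *Meg3* overlaps *Gm26906* on the other strand, and whether strand was used in counting is not given in the sources used here.

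CpG dinucleotides are where the methylation that marks the parental copies is placed. The 250 bases before the RefSeq start are shown for 3 members, 1 lower and 2 higher in *SM22-SmoM2* fibroblasts, which had the most UMIs of the 4 members that differed 2-fold between the libraries. The sequences are from RefSeq (GRCm38.p6), run 5′ to 3′ along the gene, and carry each CpG in capitals. They cover chr12:109452573-109452822 (plus strand), chr6:30737800-30738049 (plus strand) and chr7:6730420-6730669 (minus strand).
Dlk1: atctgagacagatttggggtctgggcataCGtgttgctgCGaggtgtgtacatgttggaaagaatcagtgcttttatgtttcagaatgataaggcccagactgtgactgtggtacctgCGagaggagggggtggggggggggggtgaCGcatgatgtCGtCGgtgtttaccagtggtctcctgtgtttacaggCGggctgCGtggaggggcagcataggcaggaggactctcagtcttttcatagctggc
Mest: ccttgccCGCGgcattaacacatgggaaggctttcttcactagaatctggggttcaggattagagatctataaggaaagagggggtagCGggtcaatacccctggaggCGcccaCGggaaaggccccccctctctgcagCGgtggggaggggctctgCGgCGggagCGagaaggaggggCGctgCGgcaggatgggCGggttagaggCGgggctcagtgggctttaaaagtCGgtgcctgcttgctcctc
Peg3: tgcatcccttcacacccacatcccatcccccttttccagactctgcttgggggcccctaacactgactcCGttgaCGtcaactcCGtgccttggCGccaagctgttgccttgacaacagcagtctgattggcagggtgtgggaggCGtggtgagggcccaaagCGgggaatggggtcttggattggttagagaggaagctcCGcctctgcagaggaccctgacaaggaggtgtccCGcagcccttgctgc
The window of *Dlk1* held 8 CpGs, that of *Mest* 14 and that of *Peg3* 8, against a median of 6 over 32851 windows of the same length. Of all windows, 57.0% had fewer than 8 CpGs and 70.6% fewer than 14. Methylation was not measured, and these windows were not shown to be regions that carry the parental mark. *Mest* has 3 such starts, and a window with the most CpGs is shown. Windows were found for 8 of the 10 members, 15 in all. The letters GACCACCCA, the binding motif of the Gli factors that carry the Hh signal, were searched on both strands as an exact match. They were in 0 of the 15 windows and in 0.225% of all windows. At so low a share, 0 of 15 does not show that the members lack Gli sites.

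Most of these genes were higher in fibroblasts than in the other sorted wound cells. The members were chosen with earlier results of these data known, so their counts do not describe imprinted genes in general. In control wounds, 8 of 10 members were at least 2-fold higher in CPM in fibroblasts than in all other cells together, whereas 10.2% of 12403 genes were. In *SM22-SmoM2* wounds 8 of 10 were as well, beside 9.63% of 11313 genes. The sets were not the same, since *Dlk1* was among them only in control and *Grb10* only in *SM22-SmoM2* wounds. A single member, *Snrpn*, was at least 2-fold lower in control fibroblasts (all genes 23%), and 0 of 10 were lower in *SM22-SmoM2* fibroblasts (all genes 16.1%). The median gene was itself lower in fibroblasts, at a log2 ratio of -0.32 in control and -0.22 in *SM22-SmoM2*. With the libraries scaled instead by the median of gene ratios (a shift of -0.24 and -0.25), 12.9% and 12% of genes were at least 2-fold higher, calls for higher genes moved from 30.6% to 41.8% of all calls in control and from 37.5% to 49.4% in *SM22-SmoM2*, and the member counts were again 8 and 8.

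The member most restricted to fibroblasts was *H19*, a non-coding RNA that is the precursor of a microRNA. Its level in fibroblasts was 368 CPM (358 to 378) in control and 356 CPM (345 to 366) in *SM22-SmoM2* wounds. In endothelial cells it was 4.77 and 6.73 CPM, and in Schwann cells 4.24 and 18.3 CPM. The next highest classes were immune cells at 64.3 and 112 CPM, on 45 and 41 UMIs, and mural cells at 24 and 39.3 CPM. The immune UMIs came from 4 of 82 and 6 of 33 cells. Immune cells also carried the fibroblast markers at 4862 and 9008 CPM in sum, and the part of fibroblast transcripts was not tested. *H19* was 37.5-fold and 15.6-fold higher in fibroblasts than in all other cells, and fibroblasts held 96.8% and 96.2% of its UMIs. *Plagl1*, a zinc finger transcription factor that restrains proliferation, was 12.5-fold and 9.37-fold higher in fibroblasts. *Ndn* (necdin, a MAGE family protein that restrains growth) was 6.83-fold and 3.75-fold higher, with mural cells next at 54.5 and 59.9 CPM. *Cdkn1c* (p57Kip2), which blocks cyclin-dependent kinases, was 4.3-fold and 3.95-fold higher in fibroblasts. *Peg3*, which encodes a large zinc finger protein, was 2.3-fold and 4.2-fold higher. For *Peg3*, Schwann cells came close in control, at 39.8 CPM beside 54.5 CPM in fibroblasts. In *SM22-SmoM2* wounds immune cells came next, at 71.1 CPM on 26 UMIs, beside 159 CPM.

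Genes of the chromosome 12 cluster were shared with mural cells, the contractile cells around vessels. *Meg3*, 3.48-fold and 2.78-fold higher in fibroblasts than in all other cells, stood at 3352 CPM in control mural cells and 3535 CPM in *SM22-SmoM2* mural cells, above its 2390 and 1880 CPM in fibroblasts. *Dlk1*, a membrane protein related to Notch ligands that holds back fat cell differentiation, stood at 388 and 533 CPM in mural cells. It was at 694 CPM in control fibroblasts and at 68.9 CPM in *SM22-SmoM2* fibroblasts. Fibroblasts therefore led *Dlk1* in control wounds and mural cells led it in *SM22-SmoM2* wounds. In both libraries Schwann cells and endothelial cells held under 20 CPM of *Dlk1*, with 11.4 and 6.94 CPM in Schwann cells.

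*Snrpn*, which encodes the spliceosomal protein SmN, ran the other way. Control fibroblasts held 32 of its UMIs (2.27 CPM), the lowest level of the 5 larger classes, while mural cells stood at 29.4 CPM, Schwann cells at 18.2 CPM and endothelial cells at 11 CPM. In the *SM22-SmoM2* library fibroblasts reached 19.7 CPM, and mural, Schwann and endothelial cells stood at 26.2, 22.8 and 18.5 CPM. *Grb10*, an adaptor that dampens insulin and IGF receptor signaling, was the member closest to equal between fibroblasts and other cells in control wounds (1.56-fold, and 2.13-fold in *SM22-SmoM2*), at 120 CPM in fibroblasts and 107 CPM in endothelial cells. *Mest*, an enzyme of the alpha/beta hydrolase fold, was 2.54-fold and 9.47-fold higher in fibroblasts than in all other cells, and endothelial cells came next in control at 109 CPM.

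**Figure D1:**
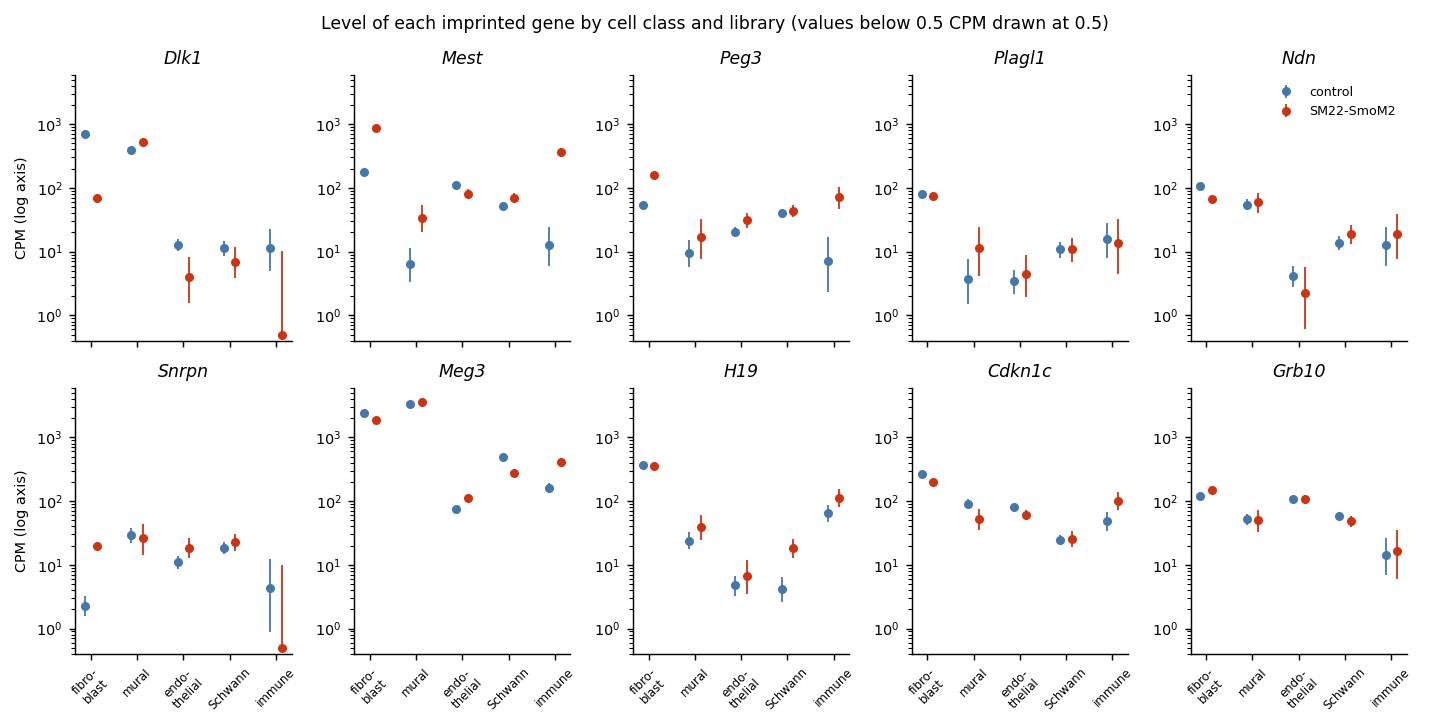
Level of each imprinted gene in 5 cell classes of the control (blue) and *SM22-SmoM2* (red) libraries, in CPM on a log axis, with 95% Poisson intervals that cover counting error only. *H19* stands apart in fibroblasts at 368 and 356 CPM, *Dlk1* and *Meg3* are also high in mural cells, and *Snrpn* is lowest in control fibroblasts among the control classes; 2 values of 0 in *SM22-SmoM2* immune cells are drawn at 0.5 CPM.

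Between the libraries, 3 of 10 members were at least 2-fold higher in *SM22-SmoM2* fibroblasts, namely *Snrpn*, *Mest* and *Peg3*, where 5.02% of 11523 genes were. *Dlk1*, 1 of 10, was at least 2-fold lower, where 4.91% of genes were. The median log2 ratio of the 10 members was -0.08, beside -0.06 over all genes. All 4 members past 2-fold are paternally expressed. The 6 paternal members lay on both sides of 0, from -3.33 to 3.12, with a median log2 ratio of 0.72. The 4 maternal members had a median of -0.20 with 0 past 2-fold in either direction. Among other genes imprinted in at least some tissues, counted below, 3 of 13 paternally and 3 of 16 maternally expressed genes were at least 2-fold higher.

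*Dlk1* had 9797 UMIs in control fibroblasts and 860 in *SM22-SmoM2* fibroblasts. Its level was 694 CPM (680 to 708) and 68.9 CPM (64.4 to 73.7), a 10.1-fold difference (log2 ratio -3.33, -3.43 to -3.23). The Wnt ligand *Wnt2* was also lower, at 91.4 and 13.9 CPM. *Mest* had 2466 and 10942 UMIs, and its level was 175 CPM (168 to 182) in control fibroblasts and 877 CPM (860 to 893) in those of *SM22-SmoM2* wounds. *Mest* was thus 5.02-fold higher (log2 ratio 2.33, 2.26 to 2.39). *Dlk1* and *Mest*, both with fetal mesenchyme as a known site of expression, differed in opposite directions.

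*Peg3* had 770 UMIs in control and 1987 UMIs in *SM22-SmoM2* fibroblasts. Its level was 54.5 CPM (50.8 to 58.5) and 159 CPM (152 to 166), 2.92-fold higher in *SM22-SmoM2* (log2 ratio 1.55, 1.42 to 1.67). *Snrpn* had 32 and 246 UMIs, at 2.27 CPM (1.55 to 3.20) and 19.7 CPM (17.3 to 22.3), 8.7-fold higher (log2 ratio 3.12, 2.59 to 3.70). Of the *Snrpn* UMIs in *SM22-SmoM2* fibroblasts, 78 came from 46 cells of 1 sub-cluster described later, and the log2 ratio without that sub-cluster was 2.61. The other 6 members stayed within 2-fold. *Ndn* was at 105 and 67.2 CPM (log2 ratio -0.65), *Plagl1* at 80.1 and 74.2 CPM (-0.11) and *Grb10* at 120 and 149 CPM (0.31).

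The 2 maternally expressed non-coding RNAs and the cell cycle inhibitor of the set differed less. *Meg3* was at 2390 CPM in control and, in *SM22-SmoM2* fibroblasts, 1880 CPM (log2 ratio -0.35, -0.37 to -0.32). *H19* was at 368 and 356 CPM, with an interval of the log2 ratio that held 0 (-0.05, -0.11 to 0.01). *Cdkn1c* was at 270 and 197 CPM (log2 ratio -0.45, -0.53 to -0.38). *Dlk1* (-3.33) and *Meg3* (-0.35) are neighbors in 1 cluster, and so are *Snrpn* (3.12) and *Ndn* (-0.65).

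The sexes were mixed unequally, so the ratios were also taken in cells of 1 sex. In male cells the log2 ratio was -3.58 for *Dlk1*, 2.48 for *Mest*, 1.71 for *Peg3* and 3.52 for *Snrpn*. In female cells, of which *SM22-SmoM2* fibroblasts held 48, it was -1.68, 1.55, 1.24 and 3.38. These 4 members kept their direction in each sex. *H19* was at -0.06 in male and -0.87 in female cells.

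The members differed in how their UMIs were spread over cells. *Meg3* was found in nearly every fibroblast: after each cell was thinned to 2500 UMIs, a depth that every cell reached, 94.7% of control and 89.98% of *SM22-SmoM2* fibroblasts had a UMI. *Dlk1* was found in fewer cells. At equal depth, 28.8% (26.1 to 31.6) of control and 6.10% (4.76 to 7.68) of *SM22-SmoM2* fibroblasts had a *Dlk1* UMI, and 43.3% and 12.9% before thinning. Schwann cells, in which free RNA gives a guide to the background, had 2.51% and 0.680%, at a full median depth of 5969 and 5545.5 UMIs. The top 10% of fibroblasts held 74.3% of *Dlk1* UMIs in control and 96.3% in *SM22-SmoM2*.

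*Mest* was detected at equal depth in 18.6% (16.4 to 21.1) of control and 40.0% (37.1 to 42.9) of *SM22-SmoM2* fibroblasts, and in 35.2% and 59.7% before thinning. Schwann cells had 10.9% and 12.9%, and endothelial cells 17.2% and 17.3%, so the control share was close to that of endothelial cells. The top 10% of cells held 76.6% of *Mest* UMIs in control and 64.7% in *SM22-SmoM2* fibroblasts, with up to 257 UMIs in 1 cell. For *Peg3* the shares at equal depth were 13.6% and 28.0%, with Schwann cells at 11.4% and 8.50%. For *H19*, 31.2% of control and 26.1% of *SM22-SmoM2* fibroblasts had a UMI, beside 1.18% and 3.06% of Schwann cells. *Snrpn* was detected in 0.550% and 4.83% of fibroblasts and in 4.72% and 4.42% of Schwann cells. Its share in fibroblasts thus did not exceed that of Schwann cells beyond counting error. In control the Schwann share was above the fibroblast share of the same library, so Schwann cells are no background guide for *Snrpn*.

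**Figure D2:**
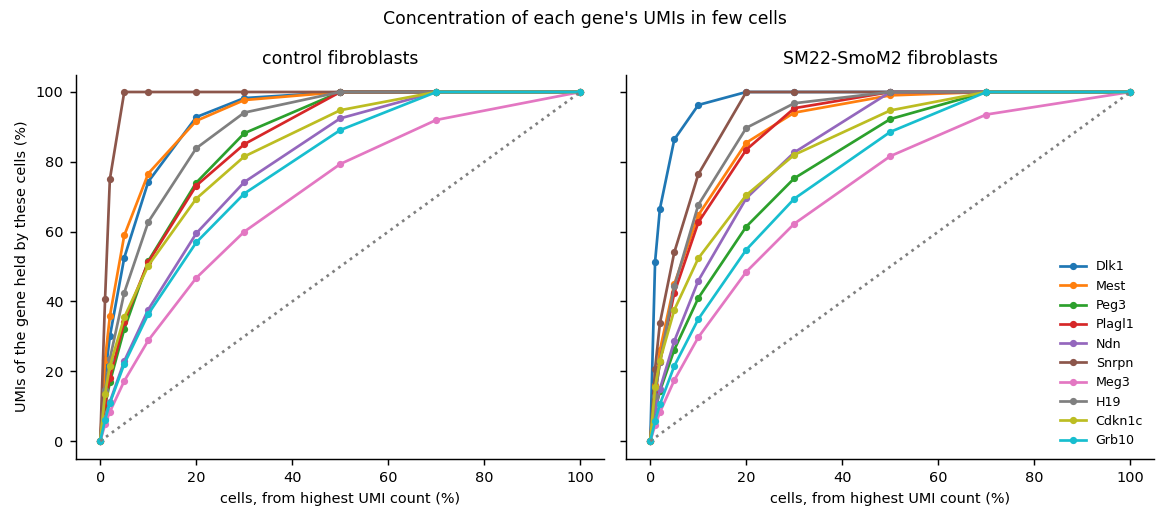
Share of each gene's UMIs (y axis, %) held by the fibroblasts with the most UMIs of that gene (x axis, % of cells) in control (left) and *SM22-SmoM2* (right) fibroblasts; the dotted line marks an even spread. *Meg3* lies nearest the even spread, while the top 10% of cells hold 74.3% of *Dlk1* UMIs in control and 96.3% in *SM22-SmoM2*; the curve of *Snrpn* in control rests on 32 UMIs.

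Detection of pairs of members in the same cell was also counted. In control, 15.3% of the 314 *Dlk1*-positive cells and 20.0% of the *Dlk1*-negative cells also had *Mest* at equal depth. In *SM22-SmoM2* wounds the values were 44.8% of 67 and 39.7%. *H19* went with each of them in *SM22-SmoM2* fibroblasts, where *Mest* was found in 63.1% of the cells with *H19* and in 31.8% of those without, and *Dlk1* in 10.1% and 4.69%. In control, *Dlk1* was found in 47.4% of the cells with *H19* and in 20.4% of those without. These shares are descriptions over cells of 1 library each.

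Fibroblasts were divided into sub-clusters by genes that did not include the members, and 13 sub-clusters were kept. Most were held mainly by 1 library. The sub-cluster led by *Wnt2*, *Dlk1*, *Nov*, *Sfrp4* and *Pamr1* had 267 control cells and 4 *SM22-SmoM2* cells, and carried 1694 CPM of *Dlk1*, 70.2% of all *Dlk1* UMIs of control fibroblasts from 28.7% of their UMIs. Other control cells with high *Dlk1* were 83 cells led by *Agtr2* and *Angptl1*, at 1398 CPM, and 59 cycling cells led by *Ube2c*, at 1250 CPM. The control sub-clusters of at least 20 cells thus ranged from 14.7 to 1694 CPM of *Dlk1*. In the *SM22-SmoM2* library the range was 8.79 to 351 CPM, with the top in 117 cells led by *Mmp3*, *Ctla2a* and *Mmp13*, which held 57.7% of its *Dlk1* UMIs.

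In *SM22-SmoM2* fibroblasts *Mest* was highest in a sub-cluster rich in cells with *Ptch1*. The sub-cluster led by *Sfrp5*, *Cldn1*, *Ccdc3*, *Mest* and *Penk*, with 34 control and 226 *SM22-SmoM2* cells, had *Ptch1* UMIs in 85.8% of its *SM22-SmoM2* cells and carried 495 CPM of *Mest* in its control cells and 2289 CPM in its *SM22-SmoM2* cells. It held 54.9% of the *Mest* UMIs of *SM22-SmoM2* fibroblasts. A high share of cells with *Ptch1* did not always go with high *Mest*: the 155 *SM22-SmoM2* cells led by *Ifitm1*, *Egfl6* and *Wif1* had *Ptch1* in 73.5% of cells and 95.4 CPM of *Mest*, and the 131 cells led by *Fam212a*, *Egfl6* and *Sox11* had it in 60.3% and 41.1 CPM. These same *Egfl6* sub-clusters were low in *H19*, at 19.6 and 7.91 CPM, and stood at 229 and 138 CPM of *Peg3*. In control the highest *Mest* was in the *Mmp3* sub-cluster, at 536 CPM.

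*Snrpn* stood out in 1 group of cells. The 46 *SM22-SmoM2* cells led by *a* (agouti), *Ibsp*, *Cd24a*, *Rspo3* and *Rspo1* stood at 249 CPM of *Snrpn*, while the other *SM22-SmoM2* sub-clusters of at least 20 cells lay between 0 and 36.5 CPM and the control sub-clusters between 0.888 and 5.85 CPM. The same 46 cells had 0 UMIs of *H19*, 262 CPM of *Dlk1* and 105 CPM of *Mest*. Agouti and R-spondin genes are known to be expressed in dermal papilla cells, the mesenchymal cells that direct hair growth. The median depth of these cells was 4530.5 UMIs, the lowest of the sub-clusters of at least 20 cells. No control cell fell into this sub-cluster. In the clustering of all cells, the 49 cells led by the same genes passed the naming rule on 3 fibroblast markers, the fewest it allowed. Their name as fibroblasts is therefore weaker.

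*Cdkn1c* was highest in the control cells led by *Agtr2* and *Angptl1*, at 1319 CPM, which were 6.06% of control fibroblast UMIs and held 29.5% of its UMIs. The other control sub-clusters of at least 20 cells lay between 68.6 and 345 CPM. *Plagl1* was also highest there in control, at 193 CPM, and *Meg3* as well, at 3566 CPM. *Meg3* was the most even of the members, with a 2.69-fold range over control sub-clusters and a 2.98-fold range over *SM22-SmoM2* sub-clusters. *Dlk1* had a 116-fold range in control.

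**Figure D3:**
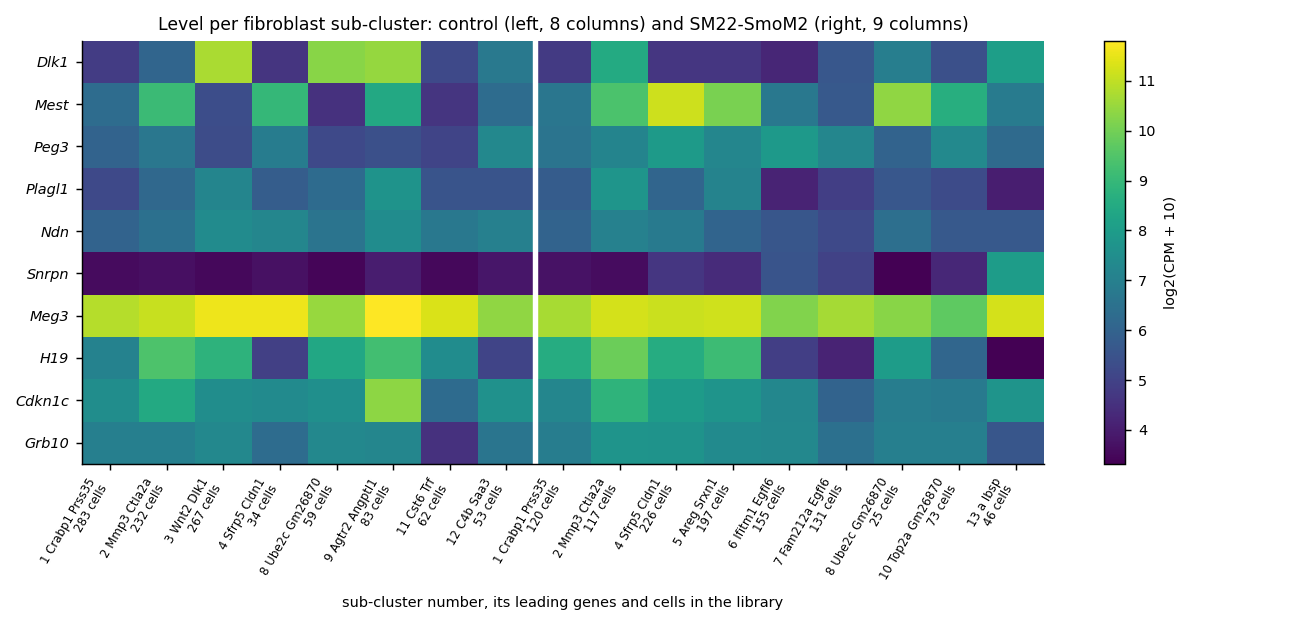
Level of each imprinted gene, as log2(CPM + 10), in fibroblast sub-clusters with at least 25 cells, control on the left of the white line and *SM22-SmoM2* on the right. *Dlk1* is high in 3 control columns, at 1694, 1398 and 1250 CPM, *Mest* in the *SM22-SmoM2* column led by *Sfrp5* at 2289 CPM, and *Snrpn* in the last column at 249 CPM.

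The libraries were also compared inside the 4 sub-clusters in which each had 25 cells or more. *Dlk1* was lower in *SM22-SmoM2*, with an interval away from 0, only in the cycling cells led by *Ube2c*, at 1250 CPM in 59 control cells and 114 CPM in 25 *SM22-SmoM2* cells (log2 ratio -3.45, -3.94 to -3.00). *Wnt2* was found in 45.8% of the former and 12% of the latter. In the *Mmp3* sub-cluster it was higher, at 58.8 CPM in 232 control cells and 351 CPM in 117 *SM22-SmoM2* cells (2.58, 2.33 to 2.84). In the *Crabp1* and *Sfrp5* sub-clusters *Dlk1* was low in both libraries, between 14.7 and 18.6 CPM. With the UMIs of the 4 sub-clusters summed, *Dlk1* was at 209 CPM in control cells and at 103 CPM in those of *SM22-SmoM2* wounds (log2 ratio -1.03, -1.16 to -0.89), in place of -3.33 over all fibroblasts. With the control rates weighted instead to the *SM22-SmoM2* mix of these sub-clusters, the log2 ratio was 0.01, an average over opposite directions. The *Wnt2* and *Agtr2* sub-clusters, high in *Dlk1*, held 4 and 0 *SM22-SmoM2* cells, and without the *Wnt2* sub-cluster the log2 ratio over the remaining fibroblasts was -2.09.

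*Mest* and *Peg3* kept their direction within sub-clusters. *Mest* was higher in the *SM22-SmoM2* cells of all 4, with log2 ratios of 0.37 (*Crabp1*), 0.32 (*Mmp3*), 2.21 (*Sfrp5*) and 6.63 (*Ube2c*), where 15 UMIs of control stood against 475. *Peg3* was higher in all 4 as well, by 0.64, 0.51, 1.13 and 1.06. In the *Ube2c* sub-cluster *Ptch1* was found in 3.39% of control and 44% of *SM22-SmoM2* cells, so its cells were not alike between libraries. With the UMIs summed the log2 ratio was 2.35 for *Mest* and 1.28 for *Peg3*, and with the weighting it was 1.80 and 0.92. Of the 7564 *SM22-SmoM2* UMIs of *Mest* summed, 6010 came from the *Sfrp5* sub-cluster, so the *Mest* sum rests mainly on it. *Snrpn* had 17 control UMIs in these sub-clusters, too few to follow it in each, and stood at 1.95 (1.13 to 2.84) when summed. Of its 49 *SM22-SmoM2* UMIs there, 41 came from the *Sfrp5* sub-cluster, where control had 1, so the sum rests mainly on that sub-cluster. The log2 ratio of *Snrpn* was -0.37 in the *Mmp3* sub-cluster, on 8 and 3 UMIs, and 0.76 in the *Crabp1* sub-cluster, on 7 and 5 UMIs. *H19*, nearly equal over all fibroblasts, was higher in *SM22-SmoM2* in 3 of 4 sub-clusters (1.56, 0.47 and 4.19) and lower in the fourth (-0.44). In the *Sfrp5* sub-cluster it went from 20.5 CPM, on 7 UMIs, to 373 CPM. *Plagl1* was higher in the *Mmp3* sub-cluster (63.2 and 205 CPM, log2 ratio 1.70).

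**Figure D4:**
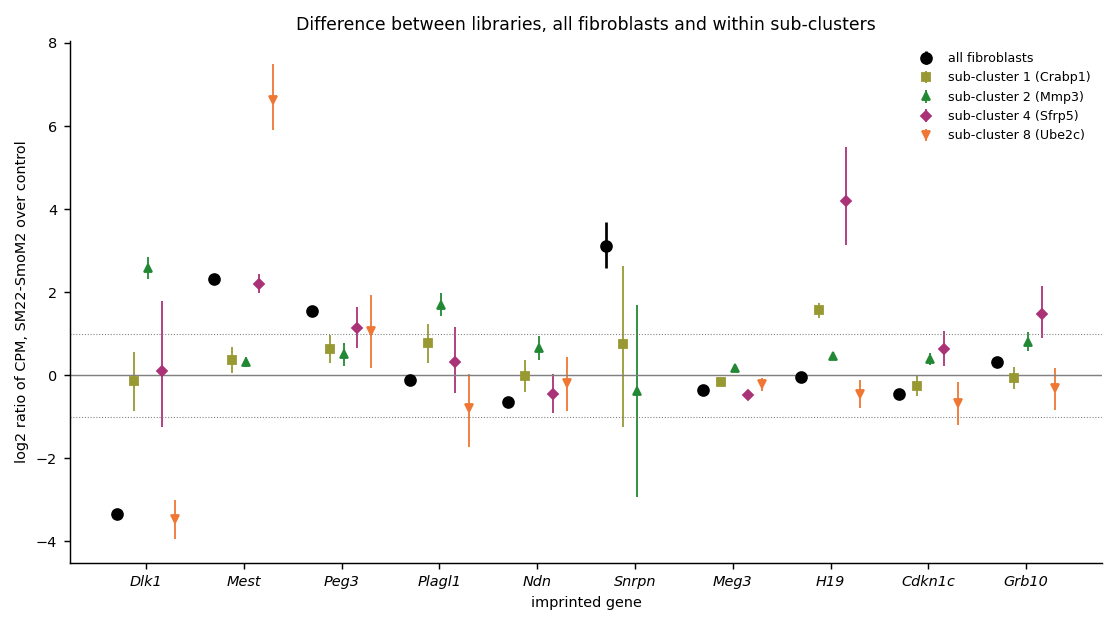
Log2 ratio of CPM, *SM22-SmoM2* over control, for each imprinted gene over all fibroblasts (black circles) and within the 4 sub-clusters that had 25 or more cells from both (colored symbols, named by a leading gene), with 95% intervals that cover counting error only; ratios with under 3 UMIs in a library are left out. *Dlk1* is at -3.33 over all fibroblasts but at 2.58 in the *Mmp3* sub-cluster, and *H19* is at -0.05 over all fibroblasts but at 4.19 in the *Sfrp5* sub-cluster.

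Detection of *Wnt2* divided control fibroblasts into 318 cells with and 772 cells without a UMI, with median depths of 15231 and 11682.5 UMIs. At equal depth 14.1% of control fibroblasts had *Wnt2*, beside 0.147% of Schwann cells. With *Wnt2*, 3 of the 9 members with at least 50 UMIs were at least 1.5-fold higher (all genes 10.7%) and 3 of 9 were at least 1.5-fold lower (all genes 13.3%). *Dlk1* was 5.33-fold higher, at 1446 CPM with and 271 CPM without *Wnt2*. *Ndn* (148 and 81.2 CPM) and *Plagl1* (108 and 64.4 CPM) were higher too. *Mest* (88.6 and 223 CPM), *Cdkn1c* (179 and 322 CPM) and *Peg3* (39.4 and 63.1 CPM) were lower. *Grb10*, *Meg3* and *H19* stayed within 1.5-fold, at log2 ratios of 0.44, 0.39 and 0.30, and *Snrpn* had too few UMIs to be counted. Of the cells in the *Wnt2*-led sub-cluster, 85.0% of those from control had *Wnt2*. With rates compared within sub-clusters, weighted to the mix of the cells with *Wnt2*, 0 of 9 members were 1.5-fold higher. The log2 ratio was then -0.11 for *Dlk1* and -0.02 for *Mest*. The share of all genes was not counted under this weighting, so the fall in the count is not particular to the members. The sub-clusters were not alike: in the *Mmp3* sub-cluster the 18 control cells with *Wnt2* had 177 CPM of *Dlk1* and 766 CPM of *Mest*, and the 214 without had 46 and 511 CPM.

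In *SM22-SmoM2* fibroblasts 105 cells had *Wnt2* and 993 did not, with median depths of 14022 and 10499 UMIs. With *Wnt2*, 4 of 10 members were at least 1.5-fold higher (all genes 7.25%) and 1 of 10 was lower (all genes 11.7%). *Dlk1* was 3.98-fold higher (200 and 50.3 CPM), and *Plagl1* (124 and 67.1 CPM) and *Ndn* (109 and 61.1 CPM) again stood higher. *Mest* was 2.58-fold higher with *Wnt2*, at 1892 and 732 CPM, where over all control fibroblasts it was lower. *Snrpn* was the lower member, at 7.72 CPM on 12 UMIs with *Wnt2* and 21.4 CPM without. *H19*, *Meg3*, *Cdkn1c*, *Grb10* and *Peg3* stayed within 1.5-fold, between -0.04 and 0.55 on the log2 scale. When *Wnt2* was scored after thinning, which left 28 cells with it, *Dlk1* fell under 1.5-fold (log2 ratio 0.55) and *Mest* was at 1.48. Within sub-clusters the log2 ratio was 1.75 for *Dlk1* and 0.57 for *Mest*, and 1 of 10 members was 1.5-fold higher. The share of all genes was again not counted within sub-clusters.

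Detection of *Ptch1* divided *SM22-SmoM2* fibroblasts into 640 cells with and 458 cells without a UMI, at 11298 and 10218 median UMIs. With *Ptch1*, 3 of 10 members were at least 1.5-fold higher (all genes 11.7%) and 3 of 10 lower (all genes 5.32%). *Mest* was at 1115 and 501 CPM, *Peg3* at 186 and 117 CPM and *Snrpn* at 25.6 and 10.3 CPM. *Dlk1* was lower with *Ptch1*, at 35.3 and 122 CPM, as were *H19* (241 and 537 CPM) and *Plagl1* (57.8 and 100 CPM). *Grb10*, *Meg3*, *Ndn* and *Cdkn1c* stayed within 1.5-fold, between -0.54 and 0.18 on the log2 scale. Scaled by the median of gene ratios, the counts were 2 higher (all genes 8.8%) and 4 lower (all genes 6.88%). The counts changed because *Peg3* dropped under 1.5-fold (log2 ratio 0.57) and *Cdkn1c* passed it (-0.64). Higher genes were then 56.1% rather than 68.8% of all calls. With *Ptch1* scored after thinning, *Peg3* was at 0.09. Within sub-clusters 0 members were 1.5-fold higher, with *Mest* at a log2 ratio of 0.37 and *H19* at -0.72. The share of all genes was not counted there either.

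In control, 108 fibroblasts had *Ptch1* and 982 did not, at 12888 and 12462 median UMIs. At equal depth 3.12% of control fibroblasts had *Ptch1*, no more than the 3.83% of control Schwann cells, while in *SM22-SmoM2* wounds it was 28.3% and 4.76%. With *Ptch1*, 1 of 9 members was at least 1.5-fold higher (all genes 8.92%) and 3 of 9 were lower (all genes 8.69%). *Mest* was 2.3-fold higher, at 355 and 154 CPM. *Dlk1* (442 and 723 CPM), *Cdkn1c* (162 and 283 CPM) and *Grb10* (71.8 and 125 CPM) were lower. *Peg3*, *Meg3*, *Ndn*, *Plagl1* and *H19* stayed within 1.5-fold, between -0.54 and 0.37 on the log2 scale. Schwann cells were not shown to lack *Ptch1*. In control it stood at 13.1 CPM in Schwann cells, 12.2 CPM in fibroblasts and 15.8 CPM in endothelial cells. Mural and immune cells were lower, at 8.55 and 2.86 CPM. Equal shares in fibroblasts and Schwann cells therefore do not tell expression from background. Before thinning, *Ptch1* detection was uneven over control sub-clusters. It was 41.2% of 34 *Sfrp5* cells, 27.4% of 62 cells led by *Cst6* and 1.20% of 83 *Agtr2* cells. With rates compared within sub-clusters, the log2 ratio of *Mest* was 0.66. In the *Mmp3* sub-cluster *Mest* was at 1054 CPM in 28 control cells with *Ptch1* and at 457 CPM in 204 without. The difference went the other way in the *Sfrp5* sub-cluster, with 228 CPM in 14 control cells with *Ptch1* and 727 CPM in 20 without.

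Since the study was about Hh activity beside Wnt signaling, the splits were also combined. A *Wnt2* UMI marks expression of a ligand gene, whereas the study targeted Wnt-active cells through *Axin2*. These classes therefore do not show which cells respond to Wnt. The 62 *SM22-SmoM2* fibroblasts with both *Wnt2* and *Ptch1* UMIs carried 2630 CPM of *Mest* (2530 to 2734). The 578 cells with *Ptch1* alone stood at 893 CPM, the 43 cells with *Wnt2* alone at 649 CPM and the 415 cells with neither at 481 CPM. *Dlk1* had another order in the same cells, with 461 CPM (407 to 519) in cells with *Wnt2* alone and 45.1 CPM (32.8 to 60.6) in cells with both. In control, *Dlk1* was high in the 298 cells with *Wnt2* alone, at 1451 CPM, and in the 20 cells with both, at 1384 CPM. *Mest* in those 20 control cells stood at 278 CPM. *Cdkn1c* was also highest in *SM22-SmoM2* cells with *Wnt2* alone, at 411 CPM, against 140 CPM in cells with both. Cells with both had a median depth of 14315 UMIs, above the 9815 UMIs of cells with neither, so the classes also differed in depth. Their sub-clusters differed as well, since 42 of the 105 *SM22-SmoM2* cells with *Wnt2* lay in the *Sfrp5* sub-cluster. There *Mest* stood at 3042 CPM in those 42 cells and at 2058 CPM in the 184 without *Wnt2*. After thinning, 6 *SM22-SmoM2* cells had both. A joint link of *Wnt2* and *Ptch1* to *Mest* was not tested.

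**Figure D5:**
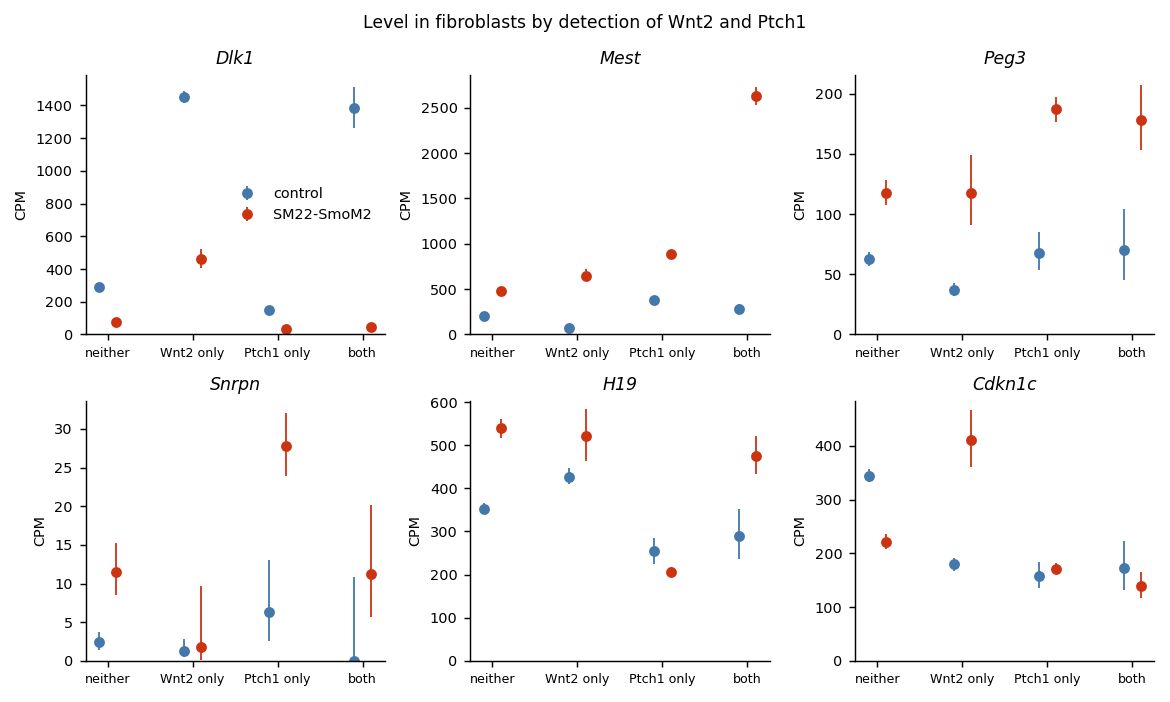
Level (CPM, linear axis from 0) of 6 imprinted genes in control (blue) and *SM22-SmoM2* (red) fibroblasts with neither *Wnt2* nor *Ptch1* UMIs, with 1 of them or with both, with 95% Poisson intervals that cover counting error only. *Mest* reaches 2630 CPM in *SM22-SmoM2* cells with both, where *Dlk1* is at 45.1 CPM; the control class with both holds 20 cells.

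Genes with the most similar pattern were sought over 16 groups (sub-clusters by library, each of at least 30 cells) among 5504 genes. The groups share libraries, so the correlations are descriptions. *Dlk1* was most like *Atp1b1*, *Nov* and *Npepl1* (Pearson r 0.89, 0.88 and 0.87), and *Mest* most like *Mdk*, *Epha3* and *Hcfc1r1* (0.83, 0.82 and 0.77). *H19* was most like *Fibin* (0.89), *Plagl1* (0.84) and *Fndc1* (0.83), so that 1 of its 3 closest genes was itself a member. *Meg3* was most like *Lrp10*, *Tgoln1* and *Dcaf12* (0.88, 0.88 and 0.87). Between members, *Dlk1* and its neighbor *Meg3* had an r of 0.35, *Dlk1* and *Mest* -0.28, *Mest* and *Peg3* 0.60, and *Dlk1* and *Peg3* -0.62.

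Other imprinted genes came from a list of 47, drawn from general knowledge, of genes imprinted in the mouse in at least some tissues. Whether each is imprinted in wound fibroblasts was not measured, so its parental copy may not apply there. From the list, 44 are genes of the matrices and 29 had at least 50 UMIs in fibroblasts. Of these, 6 were at least 2-fold higher in *SM22-SmoM2* fibroblasts and 1 was lower, beside 5.02% and 4.91% of all genes, with a median log2 ratio of 0.00. By parental copy, 3 of 13 paternally and 3 of 16 maternally expressed genes were higher. The highest were all at low levels. They were the transcription factor gene *Klf14* (8 and 49 UMIs, log2 ratio 2.79), the thyroid hormone deiodinase gene *Dio3* (10 and 43 UMIs, 2.28), *Zim1* (47 and 158 UMIs, 1.93), the fetal growth factor gene *Igf2* (52 and 141 UMIs, 1.62), *Nnat* (38 and 91 UMIs, 1.44) and *Slc22a18* (22 and 45 UMIs, 1.21). *Rasgrf1* was lower (71 and 29 UMIs, -1.11), and *Peg10* came next (47 and 21 UMIs, -0.98).

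Set beside the members of their clusters, these genes showed no single direction. In the cluster of *Dlk1* (-3.33) and *Meg3* (-0.35), *Dio3* was higher, and *Mirg* and *Begain* stood at 0.00 and -0.05. Beside *Mest* (2.33), *Klf14* was higher and *Copg2* stood at -0.27. Beside *Peg3* (1.55), the maternally expressed *Zim1* was higher, and *Usp29* had 3 UMIs in control and 13 in *SM22-SmoM2* fibroblasts. Beside *Snrpn* (3.12) and *Ndn* (-0.65), *Peg12* stood at 0.03 and *Ube3a* at -0.12, and *Magel2* had 0 UMIs. *Igf2*, which shares its cluster and enhancers with *H19* (-0.05), was at 3.68 CPM and 11.3 CPM, and 92 of its 141 *SM22-SmoM2* UMIs came from the *Sfrp5* sub-cluster. Beside *Cdkn1c* (-0.45), the paternally expressed non-coding RNA *Kcnq1ot1* stood at 0.62, and *Phlda2* had 5 and 14 UMIs. *Tssc4*, *Cd81*, *Osbpl5* and *Nap1l4* lay between -0.44 and -0.28, while *Slc22a18* of the same cluster was higher (1.21, on 22 and 45 UMIs). *Ascl2* of this cluster had 4 and 0 UMIs. *Rtl1* of the *Dlk1* cluster had 7 and 6 UMIs, and *Mkrn3* of the *Snrpn* cluster had 1 and 6. *Ddc*, the neighbor of *Grb10* (0.31), stood at 0.43.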

How the data were processed

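The data were 3′ single-cell RNA libraries (10x Chromium v2), 1 per genotype. The authors deposited whole UMI counts per gene and cell, made with Cell Ranger after bcl2fastq against mm10 (versions not given in the sources used here). UMIs of 3′ ends are not scaled by gene length, so levels were compared between cells of a gene rather than between genes. The deposited barcode list is that of the kit, with no cells assigned, so barcodes common to the libraries could not be counted.

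Cells with under 200 genes or over 10% mitochondrial UMIs were left out (22 control and 10 *SM22-SmoM2* cells). Cells were clustered by K-means (50 starts, K = 20) from 2000 variable genes reduced to 20 principal components, and fibroblasts again (K = 15), in Python 3.11.15 with numpy 2.4.6, scipy 1.17.1, pandas 2.3.3, scikit-learn 1.9.0, scanpy 1.11.5 (used only for alternatives) and matplotlib 3.10.9. The clustering left out 62 genes, among them the members, Hh pathway genes and *Wnt2*. Clusters were named from marker lists, with at least 3 markers at 10 CPM and 1.5 times the median cluster. These thresholds were chosen once the clusters were known, as was leaving 1 cluster of 91 and 44 cells unnamed, which was counted among the other cells, and taking out 2 fibroblast sub-clusters led by markers of another lineage. Doublets were removed only in an alternative, by Scrublet, which marked 5 and 11 cells. In fibroblasts the mural list was at 313 and 250 CPM in sum, and the endothelial list at 78.4 and 73.7 CPM, beside 74117 and 46458 CPM for the fibroblast list.

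UMIs were summed by class and library and given as CPM with exact Poisson intervals. Log2 ratios carry exact conditional intervals and shares Clopper-Pearson intervals, at 95%. A count of 0 was replaced by 3 UMIs in ratios, and counts of genes used genes with at least 50 UMIs over both classes. With 1 library per group no test was made, and p-values were not computed. Intervals and floors cover counting error only. The calculations were tested on simulated data. The members, lists and rules were chosen with earlier results of these data known. The rule for named genes took all 10 members in each comparison, with up to 8 further imprinted genes of largest absolute log2 ratio, *Igf2*, the genes of the members' clusters, and the 3 most similar genes of the 4 members with most UMIs. Alternatives were other filters, clusterings, scalings, thresholds, depths and cell subsets.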

Additional observations from a re-analysis of the deposited data

Results flagged for a closer look

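Members that differed between the libraries at least 1.5-fold in opposite directions in 2 cell classes, each with an interval away from 0, were picked out. The differences between classes were not tested, since each class has 1 library per group. *Dlk1* was higher in *SM22-SmoM2* in the *Mmp3* sub-cluster (log2 ratio 2.58) and lower in the cycling *Ube2c* sub-cluster (-3.45), a difference of 6.03. In the *Mmp3* sub-cluster, 251 of the 496 *SM22-SmoM2* UMIs of *Dlk1* came from 21 cells with *Wnt2*, and *Wnt2* was found in 17.9% of its *SM22-SmoM2* cells and 7.76% of its control cells. *Cdkn1c* was higher in the *Sfrp5* sub-cluster (0.62) and lower in the *Ube2c* sub-cluster (-0.66), a difference of 1.28, with 40 *SM22-SmoM2* UMIs in the latter.

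The other 2 involve immune cells, of which there were 82 and 33. *Meg3* was higher in *SM22-SmoM2* immune cells (162.8 and 407.6 CPM, log2 ratio 1.32) and lower in Schwann cells (499 and 280 CPM, -0.83), a difference of 2.15. *Cdkn1c* was higher in immune cells (48.6 and 101.2 CPM, 1.06) and lower in mural cells (91.4 and 52.4 CPM, -0.80), a difference of 1.86. The 9 fibroblast markers summed to 4862 and 9008 CPM in control and *SM22-SmoM2* immune cells, 7 and 9 of the 9 at 10 CPM or more and 0 at 0, and *Pdgfra* stood at 5.71 and 35.6 CPM. *Mest* in immune cells rested on 9 and 132 UMIs, the latter from 11 of 33 cells. The part of fibroblast transcripts in these values was not tested.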

How the results depend on the processing

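With 1 library per group, no library could be left out. No paired analysis was possible because each group holds 1 library and no test was made. Of 168 recomputed counts and medians, 154 did not move beyond the limit set (1.5 times for a count). A count can stay the same while its members change. Between libraries within sub-clusters, by the weighting, *H19* (1.16) was past 2-fold higher and *Peg3* (0.92) was not. The median log2 ratio of members between libraries (-0.08) was -0.18 in male cells, 0.073 without cells with cell cycle UMIs, 0.87 within sub-clusters (control rates weighted to the *SM22-SmoM2* mix), 0.52 with the UMIs of these sub-clusters summed and 0.21 without the *Wnt2* sub-cluster. The median over all genes was not taken in these alternatives, so they show no shift particular to the members. Members at least 2-fold lower (1) became 2 at 1.5-fold and 0 within sub-clusters, where *Dlk1* was at 0.013. Within sub-clusters the members higher with *Wnt2* became 0 in control and 1 in *SM22-SmoM2*, those higher with *Ptch1* in *SM22-SmoM2* became 0, and some ratios changed sign: *Dlk1* with *Wnt2* in control (-0.11), *Plagl1* likewise (-0.58), and *Dlk1* with *Ptch1* in control (0.42) and *SM22-SmoM2* (0.11). A 2-fold threshold left 1 and 2 members higher with *Wnt2*. In female cells 0 members were higher with *Ptch1* in *SM22-SmoM2*, where *Snrpn* was at -0.20, and with *Wnt2* in control *Peg3* was at 0.88 and *Cdkn1c* at 0.34. With a minimum of 10 UMIs, 2 members were higher with *Ptch1* in control. The split by *Wnt2* in female *SM22-SmoM2* cells gave no count. Shares of all genes were not counted under these alternatives. The comparisons of libraries within sub-clusters and the left-out sub-clusters and cells were chosen after seeing the data. Of 199 alternative values of single-member ratios between libraries, 118 stayed inside the interval of the reported value and 16 had the other sign, 1 of them, *Dlk1*, for a member past 2-fold. For *Mest* the range was 1.55 to 3.00, for *Peg3* 0.92 to 1.82 and for *Snrpn* 1.72 to 3.52, and for *Dlk1* -6.26 to 0.01. Of 820 ratios in the other comparisons, 594 stayed inside and 24 had the other sign, 7 of them for a member past the threshold. *Snrpn* rests on 32 UMIs in control fibroblasts.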
